A study of Schmidtea mediterranea with 40 samples.

Results

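Stage 8 (S8) embryos of the planarian Schmidtea mediterranea, a freshwater flatworm, were compared with intact asexual adults (C4). The comparison uses 8 of the 40 RNA-Seq libraries of the study, 4 of each group, chosen by their labels, and 27522 of 35262 transcripts whose values summed to at least 1 RPKM over these 8 libraries. RPKM is the number of reads on a transcript, scaled to its length and to the size of the library. The study sequenced polyA-selected RNA of yolk (Y), of single embryos of stages S2 to S8, of virgin sexually mature adults (SX) and of C4 adults, with 4 individuals in each of 10 groups.

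S8 libraries were made from single animals of 14 days after capsule deposition, taken from egg capsules laid by an outbred sexual stock. C4 libraries were made from single intact adults of CIW4, an asexual line that is 1 clone, propagated by cutting and regeneration. Neither group carried a transgene, a knockdown or a drug treatment in the labels. Both stocks were kept at 20 °C, and adult cultures were fed beef liver. S8 animals were homogenized by pipetting and C4 adults with a mechanical disruptor. Age, biotype, genetic background, feeding and homogenization thus differ together between S8 and C4 and cannot be told apart.

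Planarian adults replace all of their cells from neoblasts, dividing cells in the tissue around the gut that express piwi genes. Hatchlings have the organs of an adult, among them a branched gut, a brain with nerve cords, eyes, excretory protonephridia and a ciliated epidermis, but no mature reproductive system. Asexual adults have none either and multiply by fission.

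The tables held 11516053 to 14265826 reads on transcripts per S8 library and 12167515 to 16985603 reads per C4 library. For a transcript of 1 kilobase, a single read amounted to 0.0338 to 0.0424 RPKM in S8 and 0.0310 to 0.0525 RPKM in C4. Libraries were compared by the root mean square difference of log2(RPKM + 0.1). It was 1.13 to 1.54 between S8 and C4 libraries, 0.57 to 0.68 within S8 and 0.55 to 1.07 within C4. The mean distance between groups exceeded that within groups by 0.569 (two-sided exact permutation test over all 35 splits, p = 0.0286, the smallest that this design allows). C4 replicate 2 stood apart, at 0.85 to 1.07 from the other C4 libraries, which lay 0.55 to 0.66 from each other. Counts that changed much without it are given both ways. Values of single libraries are given in the order of replicates 1 to 4. In whole animals, fewer cells of a type and less RNA per cell cannot be told apart.

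In S8, 3663 transcripts (13.3% of those tested) were higher than in C4 and 3112 (11.3%) were lower, at an adjusted p under 0.05 by limma and at least a 2-fold difference. Without C4 replicate 2 the counts were 3010 higher and 3067 lower. Low transcripts made up much of the higher set. Of the 3663, 1979 (7.19% of those tested) averaged under 1 RPKM in S8, and of the 3112, 756 (2.75%) averaged under 1 RPKM in C4. From 1 RPKM upward, 1684 (6.12%) were higher and 2356 (8.56%) lower, and in 1558 (5.66%) and 2278 (8.28%) of them the libraries of S8 and C4 did not overlap either. Among the 6729 transcripts that averaged at least 10 RPKM in S8 or in C4, 228 (3.39%) were higher in S8 and 1183 (17.6%) were lower. Of 2717 tested transcripts with a name or a described protein match in the study's tables, called annotated here, 197 (7.25%) were higher and 292 (10.7%) lower. Counts in the gene lists below are to be read against these shares and against the 13.3% and 11.3% of all tested. Lack of overlap was common, called or not. Of all tested transcripts, 5114 (18.6%) had every S8 library above every C4 library, and 6401 (23.3%) had every S8 library below. Remarks below that groups did not overlap are to be read against these shares. The median log2 fold change, S8 minus C4, was 0.02 over all tested transcripts and -0.09 over the annotated ones. Scaling to total reads without the TMM factors moved the median over all transcripts to 0.28 and the counts to 4701 higher and 2284 lower, so that higher calls made up 67.3% instead of 54.1% of all calls.

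**Figure D1:**
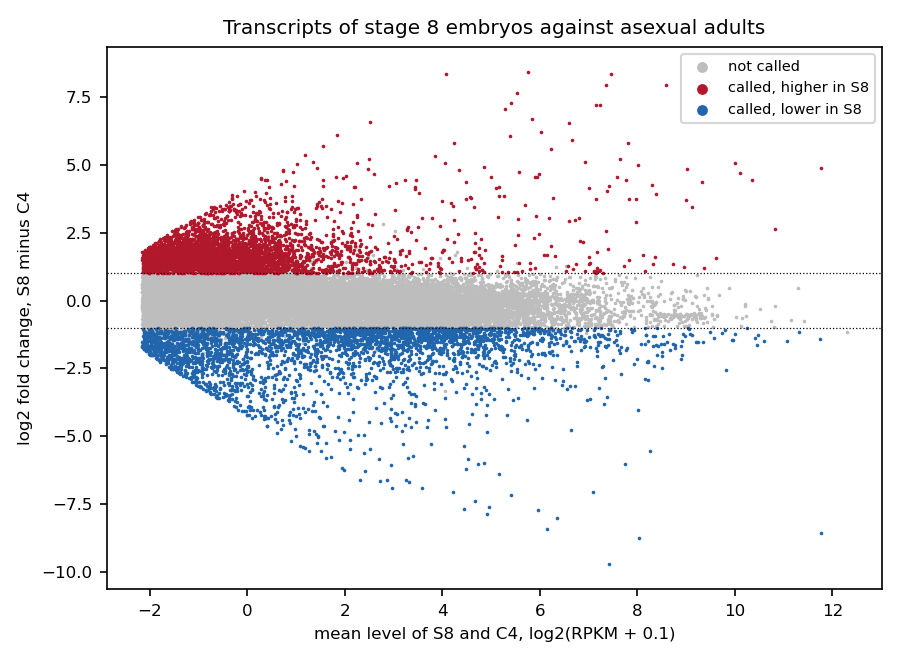
Each point is a transcript, placed by its mean level in S8 and C4 (x axis, log2 of RPKM + 0.1) and its log2 fold change, S8 minus C4 (y axis), with calls in red (higher in S8) and blue (lower in S8). Of the calls, 3663 are higher and 3112 lower, and at high levels the blue points outnumber the red ones.

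The transcripts with the largest differences had, for the most part, no annotation. Of the 10 largest higher and the 10 largest lower, taken among calls with at least 1 RPKM in the higher group and no overlap between libraries, 3 and 0 were annotated. SMED30025142 had 135, 141, 50.4 and 107 RPKM in S8, against 0.644, 0.414, 0.0135 and 0.0665 RPKM in C4 (log2 fold change 8.43, standard error 0.56, adjusted p = 2.6e-06). Every S8 library was above every C4 library, although S8 replicate 3 was the lowest of its group. SMED30026148 had 28, 49.1, 28.1 and 28.2 RPKM in S8, against 0, 0, 0 and 0 RPKM in C4, and against a floor of 3 reads over the C4 libraries it was at least 349.8-fold higher in S8. SMED30035418 had 286, 350.5, 280.3 and 395 RPKM in S8, against 1.03, 1.01, 1.42 and 1.48 RPKM in C4 (log2 fold change 7.94, standard error 0.16, adjusted p = 2.0e-09). Its level varied little within either group. It averaged 516 RPKM in S7 and 0.819 RPKM in SX.

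Among these 10 higher transcripts, 9 were highest in S8 replicate 2 and 8 were lowest in S8 replicate 3. In several, replicates 1 and 2 were above 3 and 4 in C4 as well as in S8. SMED30000022 had 419, 526, 147 and 316 RPKM in S8, against 2.41, 2.33, 0.155 and 0.51 RPKM in C4. SMED30011307 and SMED30020397 had the same split in both groups. In C4, SMED30035418 had the reverse order and SMED30026148 had no read. The cause of the shared order was not tested. All 10 averaged at least 10 RPKM in S7, and 9 did in SX. The 3 annotated ones included a lectin-like transcript, SMED30007501, with 982, 1220, 342 and 509 RPKM in S8, against 3.63, 8.59, 1.42 and 1.10 RPKM in C4 (log2 fold change 7.93, standard error 0.60, adjusted p = 4.9e-06). Lectins are proteins that bind sugars. Its S8 replicates 1 and 2 were above replicates 3 and 4, and all of them were far above C4. A transcript matching serine protease inhibitor-1, SMED30020397, had 94.6, 198, 28.6 and 46.5 RPKM in S8, against 1.03, 1.30, 0 and 0 RPKM in C4 (log2 fold change 7.64, standard error 0.93, adjusted p = 1.2e-04). It had no read in C4 replicates 3 and 4, and the groups did not overlap. Below these 10 in size, a scarf1-like transcript, SMED30003676, had 243 to 1867 RPKM in S8, against 12.9 to 64.4 RPKM in C4 (log2 fold change 4.83, standard error 0.69, adjusted p = 3.4e-04).

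In the other direction, SMED30008790 had 0.458, 0.343, 0.459 and 0.0730 RPKM in S8, against 339, 474, 296 and 257 RPKM in C4 (log2 fold change -9.72, standard error 0.35, adjusted p = 7.6e-08). It was under 1 RPKM in every S8 library and above 200 RPKM in every C4 library. SMED30010350 was the most abundant of the 10 largest lower transcripts and had 51.2, 12.4, 17 and 9.35 RPKM in S8, against 7387, 8221, 5282 and 6669 RPKM in C4 (log2 fold change -8.56, standard error 0.44, adjusted p = 5.4e-07). It averaged 3632 RPKM in SX and 5.17 RPKM in S7. Of these 10, 9 averaged under 1 RPKM in S7 and 9 at least 1 RPKM in SX. SMED30008790 was the exception in SX, with an average of 0.391 RPKM.

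**Figure D2:**
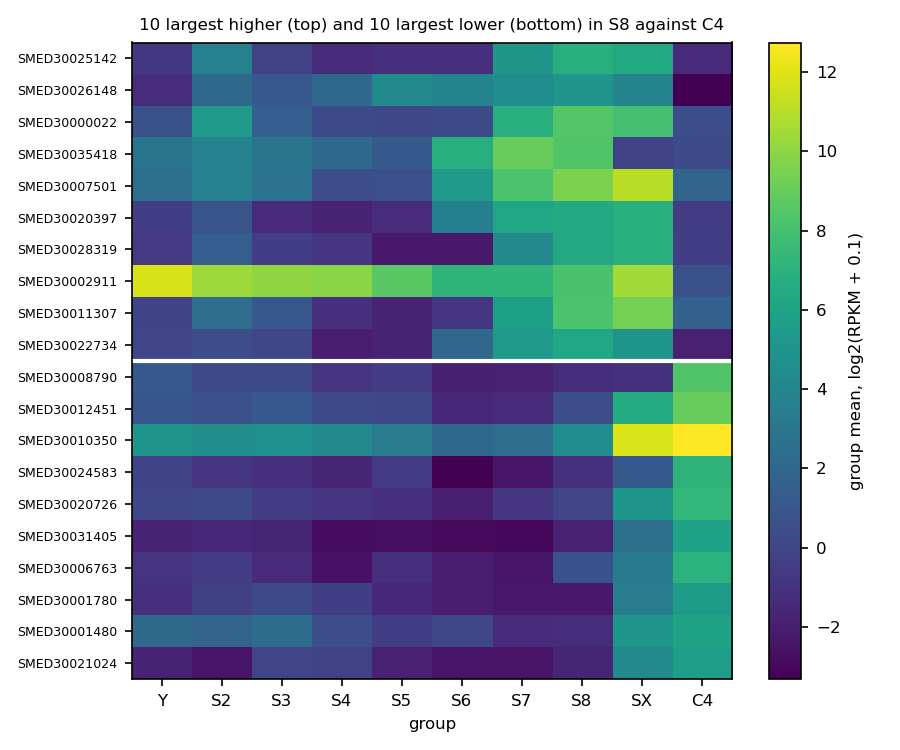
Colour gives the mean of 4 libraries as log2 of RPKM + 0.1 for the 10 largest higher (top) and 10 largest lower (bottom) transcripts in each group, in the order Y, S2 to S8, SX and C4. The upper rows are bright in S7 and S8 and dark in C4, with SMED30035418 dark in SX too, and the lower rows are brightest in C4.

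Several astacins and other proteases were lower in S8 than in C4. Astacins are zinc metalloproteases, and trypsins are serine proteases. Of 14 tested, 7 were lower and 2 higher, with a median log2 fold change of -1.08. Among the 7 is tolloid like-1 (SMED30010228), an astacin relative that is counted in the list of the next paragraph as well. Ast1 (SMED30002195) had 176, 215, 254 and 268 RPKM in S8, against 830.0, 833, 659 and 566 RPKM in C4 (log2 fold change -1.66, standard error 0.21, adjusted p = 1.3e-04). All S8 libraries were below all C4 libraries. Ast6 (SMED30007813) was more abundant and had 564, 598, 734 and 809 RPKM in S8, against 2435, 2365, 1984 and 1681 RPKM in C4 (log2 fold change -1.65, standard error 0.27, adjusted p = 9.4e-04). The Ast2 transcripts SMED30012714 and SMED30005126 and the Ast4 transcript SMED30019357 were lower as well, with log2 fold changes of -1.60, -1.59 and -1.28. Ast5 (SMED30014093) did not overlap between the groups but missed the fold threshold, at -0.70. A trypsin-like transcript, SMED30013511, had 1.73 to 5.15 RPKM in S8, against 12.1 to 20.6 RPKM in C4 (log2 fold change -2.46, standard error 0.29, adjusted p = 1.0e-04). The 2 higher members were neurotrypsin-like, SMED30032823 with 154 ± 12.6 RPKM in S8 and 60.5 ± 9.68 RPKM in C4 and SMED30005872 with 67.5 ± 11.1 RPKM in S8 and 31.6 ± 4.50 RPKM in C4 (SD, n = 4 each). Neurotrypsin is a secreted serine protease of the mammalian nervous system. The study's tables, however, place SMED30005872 in the gut and SMED30032823 in the gamma subclass of gut-primed neoblasts. Both calls are therefore counted again in those lists below. Reads that fit up to 5 places were kept, so that similar Ast transcripts may share reads.

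Matrix metalloproteinases cut proteins of the extracellular matrix, and tolloids are astacin relatives that process matrix proteins and growth factors. Of 11 tested, 4 (36.4%) were lower in S8 and 0 higher (median log2 fold change -0.45). mmp1 (SMED30019930) had 473, 388, 636 and 642 RPKM in S8, against 1609, 1558, 1421 and 1194 RPKM in C4 (log2 fold change -1.46, standard error 0.26, adjusted p = 0.0013). tolloid like-1 (SMED30010228) had 139.8, 173, 193 and 212 RPKM in S8, against 688, 541, 513 and 422 RPKM in C4 (log2 fold change -1.59, standard error 0.20, adjusted p = 1.4e-04). In both, the highest S8 library was below the lowest C4 library. The call of tolloid like-1 is shared with the astacins and trypsins above, so that the lists are not separate observations of it. The mmp2 transcripts SMED30003191 and SMED30019680 had log2 fold changes of -1.56 and -1.05.

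Cathepsins are proteases of the lysosome, the compartment in which cells digest proteins and sugars. Of 21 cathepsins and lysosomal proteins tested, 11 (52.4%) were lower in S8 and 4 (19.0%) higher. Their median log2 fold change was -1.15, or -0.11 without the filter on low values. The 10 cathepsins among them, a set put together after the values were seen, had 4 lower, 1 higher and a median of -0.26. Another 6 of the 21 are the macrophage-expressed gene 1-like transcripts of the next paragraph. A cathepsin L2-like transcript, SMED30017940, had 103, 82.6, 88.5 and 127 RPKM in S8, against 546, 541, 414 and 436 RPKM in C4 (log2 fold change -2.28, standard error 0.17, adjusted p = 5.3e-06). The groups were far apart, with no S8 library above 127 RPKM. The cathepsin L-like transcripts SMED30001027 and SMED30013826 had log2 fold changes of -2.69 and -2.58. The most abundant cathepsin, SMED30035609, overlapped between the groups, with 817 to 1655 RPKM in S8, against 860.0 to 1534 RPKM in C4 (adjusted p = 0.8 by limma). Lysosomal alpha-glucosidase, which breaks down glycogen, was lower in SMED30036022, with 1.38 to 2.35 RPKM in S8, against 7.12 to 10.6 RPKM in C4 (log2 fold change -2.14, standard error 0.18, adjusted p = 1.1e-05). A lysosomal acid phosphatase, SMED30009962, had a log2 fold change of -1.24.

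Transcripts like macrophage-expressed gene 1, which encodes a pore-forming protein of the innate immune system in mammals, went both ways. This set was put together after the values were seen. Of the 6 tested, 3 were higher in S8 and 3 lower, and all 6 are counted among the cathepsins and lysosomal proteins above as well. SMED30035691 had 8.23, 9.56, 6.91 and 7.58 RPKM in S8, against 1.78, 1.72, 1.89 and 1.15 RPKM in C4 (log2 fold change 2.25, standard error 0.18, adjusted p = 6.3e-06). SMED30029077, the most abundant, had 43.1, 27.9, 29.9 and 30.6 RPKM in S8, against 133, 138, 129.9 and 119.7 RPKM in C4 (log2 fold change -2.0, standard error 0.14, adjusted p = 3.1e-06). Neither overlapped between the groups. The other 2 higher members, SMED30032925 and SMED30015696, stayed under 1 RPKM in every S8 and C4 library.

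**Figure D3:**
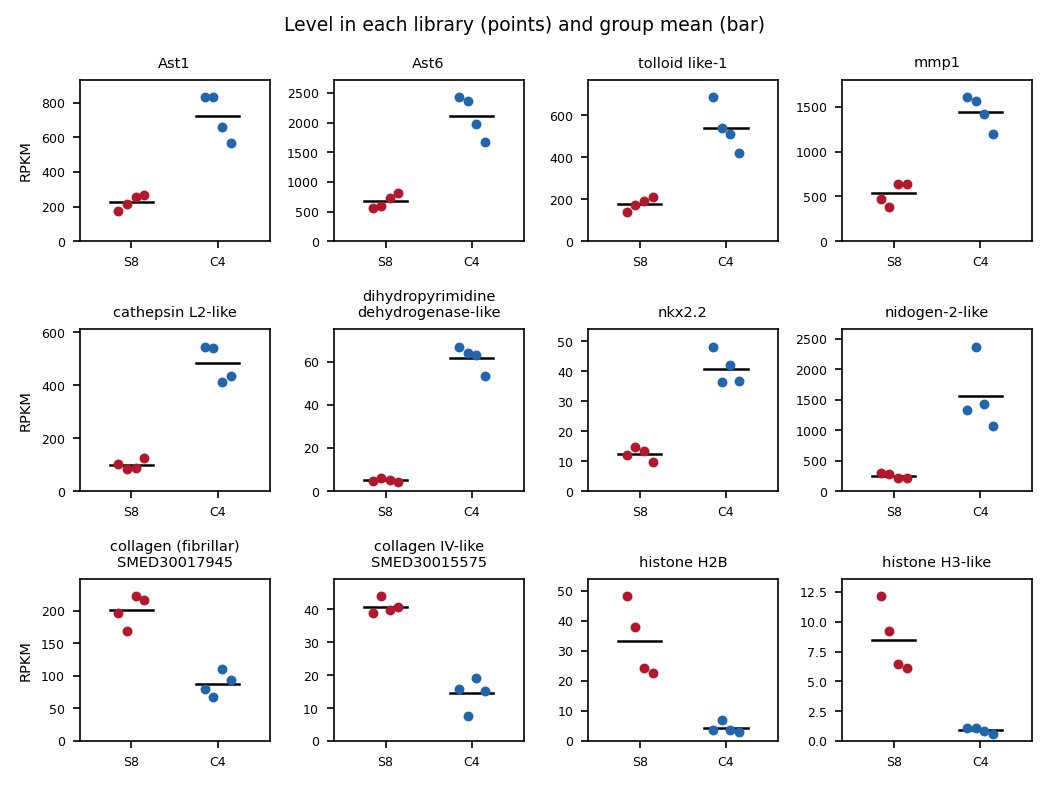
Points are the 4 S8 libraries (red, left) and the 4 C4 libraries (blue, right) and bars the group means, in RPKM on axes that start at 0. The first 8 panels show transcripts that were lower in S8, such as Ast1, mmp1 and nkx2.2, and the last 4 show collagens and histones that were higher, and no panel has overlapping groups.

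Gut transcripts had mostly lower values in S8. Of 64 transcripts that the study's tables place in the gut, 13 (20.3%) were lower and 1 (1.56%) was higher. In 48 of the 64 the log2 fold change was under 0 (median of all 64, -0.57). A dihydropyrimidine dehydrogenase-like transcript, SMED30004216, had 4.52, 6.14, 4.99 and 4.10 RPKM in S8, against 66.9, 63.8, 63.2 and 53.3 RPKM in C4 (log2 fold change -3.63, standard error 0.13, adjusted p = 7.9e-08). The enzyme starts the breakdown of uracil and thymine. No S8 library came near any C4 library, and the average was 5.41 RPKM in S7 and 6.02 RPKM in SX. A plexin-B2-like transcript (SMED30013675), matching a receptor for semaphorins, had a log2 fold change of -2.08, and a solute carrier family 15 transcript (SMED30008828), matching a peptide transporter, -1.32. hnf-4 (SMED30005748), a nuclear receptor of the gut lineage, had 19.3, 18.6, 17.4 and 17.7 RPKM in S8, against 42.1, 33.6, 37.6 and 30.6 RPKM in C4 (log2 fold change -0.96, standard error 0.11, adjusted p = 7.2e-05). It did not overlap between the groups and missed the 2-fold threshold. gata456a (SMED30007290), a transcription factor of the same lineage, had 20.4 ± 2.08 RPKM in S8 and 20.9 ± 3.44 RPKM in C4 (SD, n = 4 each, adjusted p = 0.9 by limma).

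The gamma subclass is the set of transcripts that the study lists for neoblasts primed for the gut. Of 46 members tested, 16 (34.8%) were lower in S8 and 2 (4.35%) higher, with a median log2 fold change of -0.62. nkx2.2 (SMED30011793), a homeobox transcription factor, had 12.0, 14.7, 13.3 and 9.83 RPKM in S8, against 48.2, 36.3, 42 and 36.7 RPKM in C4 (log2 fold change -1.71, standard error 0.14, adjusted p = 8.5e-06). The S8 libraries were all below the C4 libraries. A Niemann-Pick C2-like transcript (SMED30019175), matching a lysosomal cholesterol-binding protein, had 126 to 216 RPKM in S8, against 371 to 775 RPKM in C4 (log2 fold change -1.67, standard error 0.24, adjusted p = 4.0e-04). SMED30022596, without annotation, had 27.7 to 47.6 RPKM in S8, against 238 to 341 RPKM in C4 (log2 fold change -2.86, standard error 0.19, adjusted p = 2.2e-06). In the zeta subclass, for epidermal progenitors, 3 of 51 (5.88%) were lower and 1 (1.96%) higher. In the sigma subclass, for the remaining neoblasts, 4 of 75 (5.33%) were lower and 5 (6.67%) higher, or 3 higher without C4 replicate 2.

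Few neuropeptide transcripts were called, but most had lower values in S8. Neuropeptides are signalling peptides cut from longer prohormones. Of 27 tested, 4 (14.8%, against 11.3% of all tested) were lower in S8 and 0 higher, and 25 had a log2 fold change under 0 (median -0.69). Without the fold threshold, 22 were lower and 1 was higher at an adjusted p under 0.05 by limma, a rule that 23.4% of all tested transcripts met as lower and 18.8% as higher. Of the 2717 annotated transcripts, 807 met this rule as lower and 454 as higher, and 10.7% were lower with the fold threshold. Insulin-like prohormone-1 (SMED30008848) had 1.64, 1.47, 1.26 and 1.58 RPKM in S8, against 3.37, 3.64, 3.59 and 3.84 RPKM in C4 (log2 fold change -1.23, standard error 0.15, adjusted p = 1.2e-04). Its values were close within each group and did not overlap. The myomodulin-like prohormone SMED30011959 had 4.56, 9.14, 8.77 and 6.59 RPKM in S8, against 16.8, 17.9, 17.2 and 14.3 RPKM in C4 (log2 fold change -1.22, standard error 0.20, adjusted p = 7.6e-04). Neuropeptide Y prohormone-9 (SMED30016731) and secreted peptide prohormone 5 (SMED30009462) were lower with log2 fold changes of -1.09 and -1.09. Without C4 replicate 2, 2 of the 27 were called lower. Prohormone convertase 2 (SMED30010096), the protease that cuts prohormones in neurons, had 27.0, 36.0, 44.2 and 37.5 RPKM in S8, against 63.2, 72.3, 61.2 and 83.7 RPKM in C4 (log2 fold change -0.96, standard error 0.16, adjusted p = 8.1e-04). It did not overlap and was short of 2-fold.

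Other neuronal lists showed few calls. None of 26 transcripts placed in the nervous system was called, with 1 higher and 1 lower at an adjusted p under 0.05 by limma and any fold. Of 87 channels and receptors, 7 (8.05%) were lower and 2 (2.30%) higher, and of 28 synaptic proteins 3 (10.7%) were lower and 2 (7.14%) higher. These shares are below the 11.3% lower and 13.3% higher of all tested transcripts. Of annotated transcripts, 10.7% were lower and 7.25% higher. Against these, the synaptic shares were about equal and those of the channels and receptors were below. A TRP cation channel transcript, SMED30003121, was higher, with 5.17 to 7.25 RPKM in S8, against 1.41 to 1.62 RPKM in C4 (log2 fold change 2.00, standard error 0.15, adjusted p = 5.6e-06). Another, SMED30003947, was lower, with 0.835 to 3.46 RPKM in S8, against 5.91 to 7.93 RPKM in C4 (log2 fold change -1.84, standard error 0.34, adjusted p = 0.0016). The transcription factors coe (SMED30005164), of differentiating neurons, and pitx (SMED30009752), of serotonergic neurons, had log2 fold changes of -0.17 and 0.41 and adjusted p of 0.34 and 0.069 by limma.

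Many collagens were higher in S8. Collagens form the fibres and sheets of the extracellular matrix, and in planarians muscle cells are a known source of them. Of 28 matrix transcripts tested, 11 (39.3%) were higher and 1 (3.57%) was lower (median log2 fold change 0.79). All of the higher ones but the tenascin-like SMED30021405, at 1.07, matched collagens. A fibrillar collagen, SMED30017945, had 196, 169, 222 and 216 RPKM in S8, against 79.6, 67.9, 110.3 and 94.0 RPKM in C4 (log2 fold change 1.21, standard error 0.16, adjusted p = 2.5e-04). A collagen IV-like transcript, SMED30015575, matching the collagen of basement membranes, had 38.9, 44.0, 39.8 and 40.7 RPKM in S8, against 15.9, 7.60, 19.1 and 15.2 RPKM in C4 (log2 fold change 1.57, standard error 0.23, adjusted p = 4.6e-04). In both, every S8 library was above every C4 library, and C4 replicate 2 was the lowest. A collagen XV-like transcript, SMED30006777, had a log2 fold change of 1.68. The other 7 higher collagens lay between 1.01 and 1.37. SMED30024691 among them was low, averaging 0.44 RPKM in S8 and 0.149 RPKM in C4. Of all 14 collagens tested, a set put together after the values were seen, 10 were higher and 4 were not called. Among these 4, SMED30008087 had 32.2, 38.9, 47.9 and 42.5 RPKM in S8, against 88.8, 55.7, 65.2 and 64.6 RPKM in C4 (log2 fold change -0.76, standard error 0.16, adjusted p = 0.004). Every S8 library of it was below every C4 library, as was the case for SMED30009269 at -0.46. SMED30007780 and SMED30029471 overlapped between the groups, at -0.13 and 1.19. Near-identical collagens may share reads, so that they are not separate observations. Without C4 replicate 2, 9 of the 28 were higher.

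The matrix transcript that was lower in S8 matched nidogen-2, a protein that links basement membrane components. SMED30028912 had 290.3, 273, 219.9 and 223 RPKM in S8, against 1337, 2374, 1436 and 1075 RPKM in C4 (log2 fold change -2.57, standard error 0.26, adjusted p = 3.8e-05). The S8 values were close together, and C4 replicate 2 was the highest of all. Of 21 contractile proteins, 4 (19.0%) were higher in S8 and 0 lower, against 2 and 0 without C4 replicate 2. Twitchin (SMED30015353), a giant kinase of muscle, had 59.9 ± 4.29 RPKM in S8 and 29.1 ± 6.56 RPKM in C4 (SD, n = 4 each) and a log2 fold change of 1.07. The largest in that list, SMED30011307 at 7.20, has a best match outside of muscle. The others were low. Calponin-related SMED30035301 averaged 0.38 RPKM in S8 and 0.0965 RPKM in C4 and was called in 4 of the 8 fits that leave out a library. The tropomyosin SMED30030389 averaged 1.64 RPKM in S8 and 0.622 RPKM in C4. Of 11 transcripts placed in muscle, 2 (18.2%) were higher and 0 lower.

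Histone and replication transcripts tended to higher values in S8. Histones package DNA. Only polyA-selected RNA was sequenced, so histone transcripts without a polyA tail are not covered. Of 7 histone transcripts tested, 3 were higher and 0 lower (median log2 fold change 0.68). Histone H2B (SMED30021461) had 48.1, 38.0, 24.2 and 22.5 RPKM in S8, against 3.48, 6.93, 3.47 and 3.01 RPKM in C4 (log2 fold change 2.95, standard error 0.29, adjusted p = 3.0e-05). Replicates 1 and 2 of S8 were higher than 3 and 4, and all were above C4. A histone H3-like transcript, SMED30021776, had 12.1, 9.22, 6.42 and 6.13 RPKM in S8, against 1.09, 1.05, 0.811 and 0.618 RPKM in C4 (log2 fold change 3.08, standard error 0.25, adjusted p = 7.7e-06). It showed the same split of the S8 libraries, and the groups did not overlap. Both belong to the neoblast-enriched list of the study.

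Of 27 DNA replication transcripts, 1 (3.70%, against 13.3% of all tested) was higher by the full rule, a ribonucleoside diphosphate reductase (SMED30010115), which makes the building blocks of DNA, with 50 ± 1.96 RPKM in S8 and 24.1 ± 4.36 RPKM in C4 (SD, n = 4 each). At an adjusted p under 0.05 by limma and any fold, 15 were higher and 3 lower, against 18.8% and 23.4% of all tested transcripts, and the median log2 fold change was 0.48. Of the 2717 annotated transcripts, 454 were higher and 807 lower at any fold, and 7.25% were higher by the full rule. MCM2 (SMED30006979), a subunit of the replicative helicase, had 13.7, 13.3, 10.3 and 10.9 RPKM in S8, against 7.25, 6.12, 6.15 and 5.20 RPKM in C4 (log2 fold change 0.95, standard error 0.13, adjusted p = 3.2e-04). The groups did not overlap. PCNA (SMED30004304), the sliding clamp of DNA polymerase, had 47.1, 51.1, 38.7 and 39.5 RPKM in S8, against 27.9, 43.1, 27.7 and 23.8 RPKM in C4 (log2 fold change 0.55, standard error 0.18, adjusted p = 0.028). Here C4 replicate 2 lay among the S8 values. Without that library, 2 of the 27 were called higher. Of 13 mitosis and cyclin transcripts, 1 was higher, and cyclin B-1 (SMED30014394) and cyclin B-2 (SMED30005246) had adjusted p of 0.086 and 0.19 by limma.

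Neoblast markers differed by less than 2-fold. piwi-1 (SMED30007406), which encodes an Argonaute-family protein of neoblasts, had 139.8, 153, 118 and 126 RPKM in S8, against 96.1, 119, 105 and 75.0 RPKM in C4 (log2 fold change 0.45, standard error 0.16, adjusted p = 0.038). S8 replicate 3 lay just below C4 replicate 2. piwi-2 (SMED30014446) had a log2 fold change of 0.35 and piwi-3 (SMED30001362) of 0.22, with adjusted p of 0.03 and 0.14 by limma. VASA-1 (SMED30031463), an RNA helicase, had 64.9 ± 3.55 RPKM in S8 and 46.0 ± 2.79 RPKM in C4 (SD, n = 4 each, log2 fold change 0.50, standard error 0.09, adjusted p = 0.0017). Of 241 neoblast-enriched transcripts tested, 23 were higher in S8 and 9 lower, and 180 had a log2 fold change above 0 (median 0.28). The share called higher was 9.54%, against 13.3% of all tested and 7.25% of annotated transcripts.

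In the epidermal lineage, PROG-1 (SMED30035904), a marker of early progenitors, had 531, 325, 351 and 368 RPKM in S8, against 217, 291, 219 and 154 RPKM in C4 (log2 fold change 0.85, standard error 0.23, adjusted p = 0.012). AGAT-1 (SMED30018353), a marker of later progenitors, had 269, 309, 234 and 243 RPKM in S8, against 186, 219.5, 146 and 147 RPKM in C4 (log2 fold change 0.61, standard error 0.17, adjusted p = 0.016). In both, the groups did not overlap and the difference was under 2-fold. prog-2 (SMED30002134) overlapped widely, with a log2 fold change of 0.20. zfp-1 (SMED30023708), a zinc finger factor required for epidermal progenitors, had 6.63 ± 0.327 RPKM in S8 and 8.32 ± 0.955 RPKM in C4 (SD, n = 4 each, log2 fold change -0.32, standard error 0.11, adjusted p = 0.037). Of 22 epidermis transcripts, 2 were lower and 0 higher.

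**Figure D4:**
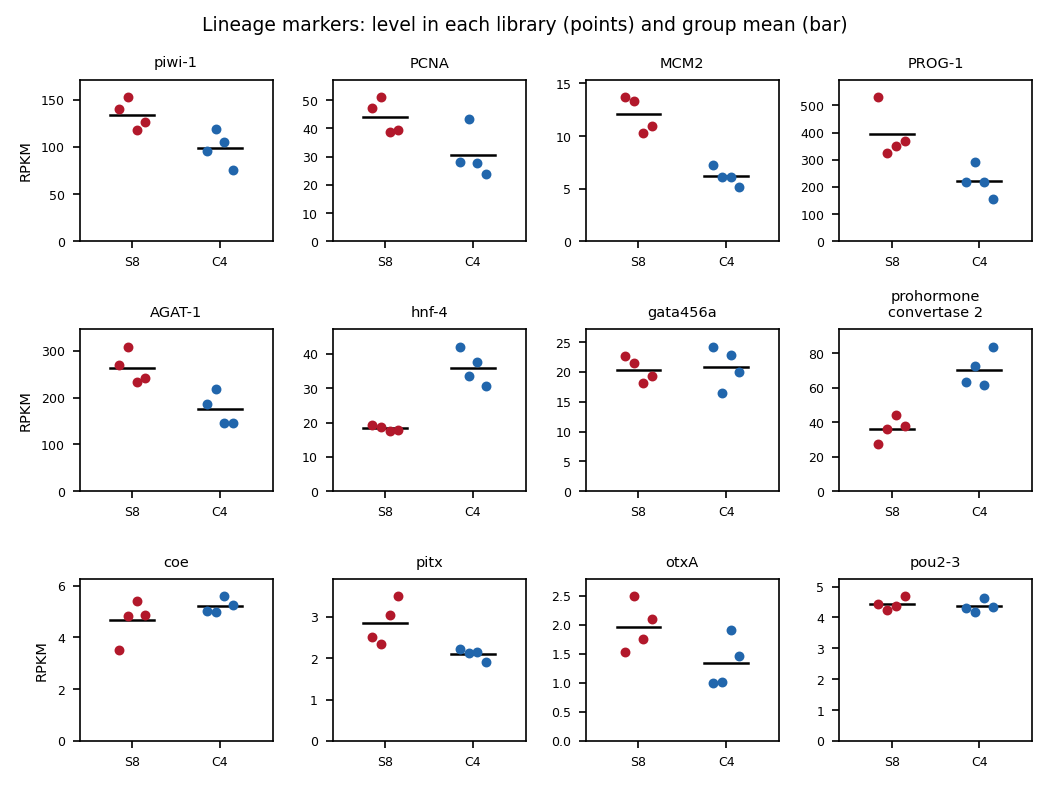
Points are the 4 S8 libraries (red, left) and the 4 C4 libraries (blue, right) and bars the group means, in RPKM on axes that start at 0, for neoblast, epidermal, gut, neuronal, eye and protonephridial markers. In MCM2, PROG-1, AGAT-1 and pitx all S8 points lie above C4, in hnf-4 and prohormone convertase 2 all lie below, and the other 6 overlap.

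Few eye, excretory and patterning genes were called. Of 37 eye transcripts, 1 was higher and 1 lower. otxA (SMED30007326), an eye transcription factor, had 1.97 ± 0.420 RPKM in S8 and 1.34 ± 0.433 RPKM in C4 (SD, n = 4 each, adjusted p = 0.1 by limma). Of 6 protonephridial transcripts, a cubilin-like receptor (SMED30016328) was higher, with 12.4 to 15.9 RPKM in S8, against 2.06 to 6.22 RPKM in C4 (log2 fold change 1.65, standard error 0.29, adjusted p = 0.0014). The protonephridial factor pou2-3 (SMED30030379) had 4.44 ± 0.179 RPKM in S8 and 4.36 ± 0.190 RPKM in C4 (SD, n = 4 each) and a log2 fold change of 0.03, with a standard error of 0.11. Of 48 patterning signals, 1 was higher and 2 were lower. activin 1 (SMED30031091), a TGF-beta family ligand, had 7.71, 6.31, 8.07 and 7.02 RPKM in S8, against 14.9, 22.4, 16.1 and 14.1 RPKM in C4 (log2 fold change -1.19, standard error 0.15, adjusted p = 1.5e-04). It did not overlap between the groups. Wnt5 (SMED30016207) had a log2 fold change of 0.02 and follistatin (SMED30035357), an activin inhibitor in vertebrates, of 0.53. Of 45 homeobox factors, 2 were lower, nkx2.2 and an LHX1-like transcript (SMED30014138) with 1.32 to 2.19 RPKM in S8, against 10.1 to 12.0 RPKM in C4 (log2 fold change -2.55, standard error 0.16, adjusted p = 1.8e-06). Of 47 cilia and axoneme transcripts, 1 was lower, a radial spoke head protein-like transcript (SMED30025672) at -1.05.

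Several other gene families had calls in both directions. Innexins form the gap junctions of invertebrates. Of 34 tested, 4 (11.8%) were higher in S8 and 4 (11.8%) lower, close to the 13.3% and 11.3% of all tested transcripts. Of annotated transcripts, 7.25% were higher and 10.7% lower. SMED30020267 had 12.3, 9.63, 7.72 and 6.70 RPKM in S8, against 0.110, 0.346, 0.174 and 0.102 RPKM in C4 (log2 fold change 5.06, standard error 0.30, adjusted p = 1.1e-06). It averaged 13.8 RPKM in S7 and 1.8 RPKM in SX. SMED30004277, matching innexin3 of another planarian, had 4.03, 3.82, 6.25 and 4.56 RPKM in S8, against 13.1, 17.6, 12.8 and 10.5 RPKM in C4 (log2 fold change -1.51, standard error 0.19, adjusted p = 1.3e-04), and another match of it, SMED30033314, was higher at 1.73. Of 28 TRAF-like transcripts, which resemble adaptors of TNF receptors, 7 (25.0%) were lower and 3 (10.7%) higher. SMED30003205 had 1.21 to 1.77 RPKM in S8, against 12.7 to 14.9 RPKM in C4 (log2 fold change -3.09, standard error 0.13, adjusted p = 2.7e-07). Of 20 CRISP and venom allergen-like transcripts, which encode secreted cysteine-rich proteins, 4 (20.0%) were higher and 4 (20.0%) lower, with SMED30018781 at 2.96 and SMED30013734 at -2.87. Among 11 cytochrome P450 transcripts, 1 (9.09%) was higher and 2 (18.2%) were lower. The higher one, SMED30010476, had 78.5, 28.4, 31.1 and 45.7 RPKM in S8, against 2.93, 6.30, 5.74 and 1.85 RPKM in C4 (log2 fold change 3.46, standard error 0.41, adjusted p = 9.4e-05). Of 9 serine protease inhibitors, 3 (33.3%) were lower and 1 (11.1%) was higher. Among the lower ones, SMED30007141 had 180.1, 154, 122 and 142 RPKM in S8, against 469, 916, 491 and 424 RPKM in C4 (log2 fold change -1.89, standard error 0.25, adjusted p = 1.9e-04). Its C4 replicate 2 was the highest by far. Of 12 heat shock transcripts, 2 (16.7%) were higher and 0 lower, and 1 higher without C4 replicate 2.

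**Figure D5:**
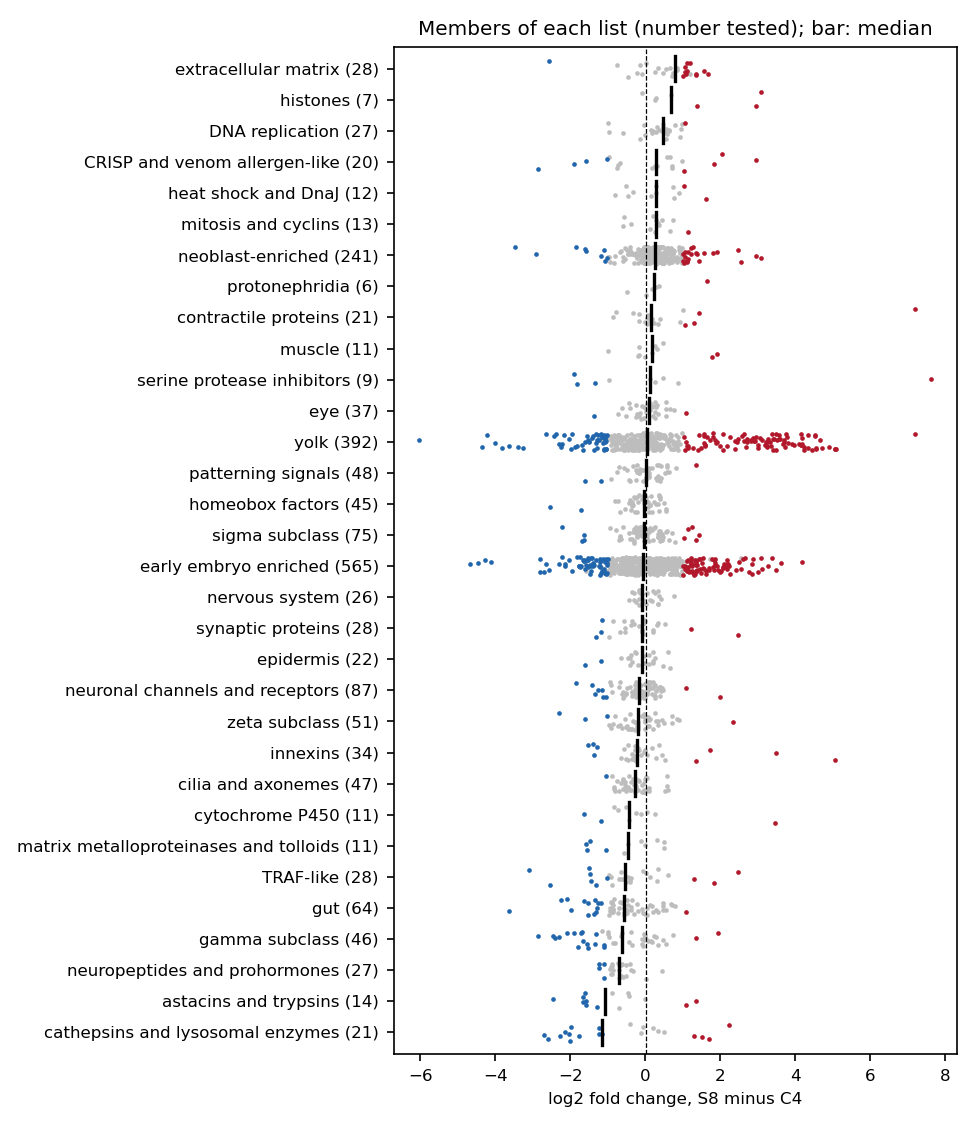
Each point is a tested member of a gene list, placed by its log2 fold change, S8 minus C4, with calls in red (higher) and blue (lower), a black bar at the list's median and a dashed line at the median of all tested transcripts. The extracellular matrix list has the highest median, at 0.79. The 2 lowest are those of the cathepsins and lysosomal enzymes, at -1.15 (-0.11 without the filter on low values), and of the astacins and trypsins, at -1.08. The cathepsins and lysosomal enzymes include macrophage-expressed gene 1-like transcripts.

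Early embryo enriched transcripts are those that the study lists as enriched in early embryos, a list chosen on these samples and so no independent evidence of a direction. Of 1048 listed, 565 passed the filter on low values, of which 80 (14.2%) were higher and 63 (11.2%) lower, close to the 13.3% and 11.3% of all tested, and the median log2 fold change was -0.04. A member could pass the filter through the group in which it was high. The study designed hybridization probes of 100 bases for part of this list. Most of the transcripts with such probes were not called. The targets of the 3 translation factors with the largest differences, and of another release factor that went the other way, are shown 5′ to 3′ to identify the transcripts by sequence, in lower case with no part marked.
SMED30003202, eIF4A-like: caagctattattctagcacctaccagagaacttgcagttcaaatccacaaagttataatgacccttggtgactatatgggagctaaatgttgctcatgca
SMED30012165, elongation factor 1 alpha-like: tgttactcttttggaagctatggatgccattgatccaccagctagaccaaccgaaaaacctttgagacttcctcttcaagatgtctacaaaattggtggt
SMED30032619, peptide chain release factor-like: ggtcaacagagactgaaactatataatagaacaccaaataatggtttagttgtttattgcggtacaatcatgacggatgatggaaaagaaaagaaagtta
SMED30006555, peptide chain release factor-like: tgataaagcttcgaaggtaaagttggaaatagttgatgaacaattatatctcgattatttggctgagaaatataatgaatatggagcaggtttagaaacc

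Translation factors start, extend and end protein chains on the ribosome. The eIF4A-like transcript SMED30003202, matching an RNA helicase of initiation, had 2.34, 2.58, 2.01 and 3.01 RPKM in S8, against 0, 0.159, 0 and 0.0467 RPKM in C4 (log2 fold change 4.20, standard error 0.36, adjusted p = 1.0e-05). It had no read in C4 replicates 1 and 3, and it averaged 91.4 RPKM in S3. Another eIF4A-like transcript with a probe, SMED30011137, was not called (log2 fold change 0.63, adjusted p = 0.11 by limma). The elongation factor 1 alpha-like SMED30012165 had 8.04, 7.80, 2.67 and 1.89 RPKM in S8, against 0.117, 0.257, 0.290 and 0.389 RPKM in C4 (log2 fold change 3.64, standard error 0.47, adjusted p = 1.9e-04). S8 replicates 1 and 2 were higher than 3 and 4, and none overlapped C4. SMED30012165 averaged 694 RPKM in S4. Another elongation factor 1 alpha-like transcript, SMED30004295, was higher at 2.51. The release factor-like SMED30032619 had 0.917, 2.13, 1.21 and 1.13 RPKM in S8, against 0.0312, 0.0391, 0.0281 and 0 RPKM in C4 (log2 fold change 3.49, standard error 0.33, adjusted p = 2.3e-05). The other, SMED30006555, had 0.0582, 0.0817, 0 and 0.0464 RPKM in S8, against 0.401, 0.468, 0.259 and 0.424 RPKM in C4 (log2 fold change -1.75, standard error 0.34, adjusted p = 0.0022). It was under 0.1 RPKM in every S8 library. A pim-1-like kinase, SMED30022810, had 2.82 to 4.39 RPKM in S8, against 0.142 to 0.383 RPKM in C4 (log2 fold change 3.27, standard error 0.28, adjusted p = 1.1e-05).

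Of the 10 markers of temporary embryonic tissues, 6 passed the filter, and 1 was higher and 1 lower. The list includes CTSL-like, LYAG-like and MPEG1-like-3 transcripts, which the paper found in embryonic gut cells as well as in the temporary pharynx. Both calls are among these, and both are counted with the cathepsins and lysosomal proteins too. The LYAG-like transcript SMED30028442, matching lysosomal alpha-glucosidase, had 0.418, 0.391, 0.337 and 0.264 RPKM in S8, against 1.79, 1.39, 1.68 and 1.81 RPKM in C4 (log2 fold change -1.97, standard error 0.24, adjusted p = 1.1e-04). The 4 that did not pass had at most 0.318 RPKM in any S8 library and at most 0.0751 RPKM in any C4 library.

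Yolk transcripts, defined by at least 100 RPKM in Y and a level at least 10-fold lower in S7, went in both directions. Of 392, 97 (24.7%) were higher in S8 and 53 (13.5%) lower, with a median log2 fold change of 0.05. Most of those at the highest levels in yolk were higher. Of the 20 highest in Y, 18 were called higher and 0 lower, and in these 18 every S8 library was above every C4 library (median log2 fold change of the 20, 4.20). SMED30030028, without annotation, averaged 45240 RPKM in S7. It had 6251, 9091, 4251 and 7161 RPKM in S8, against 141, 256, 172 and 348 RPKM in C4 (log2 fold change 4.90, standard error 0.37, adjusted p = 5.1e-06). SMED30022321 had 1990, 3107, 1248 and 2183 RPKM in S8, against 49.1, 88.0, 64.4 and 129 RPKM in C4 (log2 fold change 4.71, standard error 0.34, adjusted p = 3.9e-06). Both were above C4 in every S8 library, with S8 replicate 2 the highest and replicate 3 the lowest. SMED30007704 averaged 3105 RPKM in S8 and 6930 RPKM in C4 (adjusted p = 0.093 by limma, not called). Every S8 library of it was below every C4 library. These 20 transcripts took 2.78 to 4.83% of the reads in S8 and 1.84 to 2.15% in C4. The part of yolk RNA in these values was not tested.

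Few transcripts were read in only 1 of the 2 groups. In S8, 12 transcripts averaged at least 1 RPKM with no read in any C4 library, and in C4, 35 did so with no read in any S8 library. None of the 47 was annotated. After SMED30026148, the most abundant read only in S8 was SMED30016003, with 5.80, 7.06, 9.19 and 5.63 RPKM, at least 85.9-fold higher by the same floor. In C4, SMED30010438 had 9.86, 12.8, 7.77 and 8.58 RPKM, so that it was at least 92.5-fold lower in S8. SMED30014403 had 5.06, 5.53, 3.87 and 3.98 RPKM in C4 and was at least 237.9-fold lower in S8. Of the 35, 25 had no read in SX either and 9 had none in any other library of the study. Of the 12 read only in S8, 2 had no read in SX, and 9 averaged at least 1 RPKM in S7. Without C4 replicate 4 there were 31 such transcripts in S8.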

How the data were processed

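PolyA-selected TruSeq libraries of 50-base single-end reads were made by the study, with each HiSeq 2000 lane holding 1 replicate of S8 and of C4. Per the labels, base calls came from CASAVA 1.8.2, and Bowtie kept reads with at most 2 mismatches that fit at most 5 places. Strand was not used. The deposited values are RPKM that the authors computed with edgeR from TMM-scaled library sizes, for 35262 transcripts, with 0 rRNA transcripts among them. All 40 columns were matched to samples by their titles.

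Values of S8 and C4 were taken as log2(RPKM + 0.1), so that differences of low transcripts are understated. Transcripts summing to at least 1 RPKM over the 8 libraries were tested with limma 3.58.1 in R 4.3.3, with a trended prior and Benjamini-Hochberg adjustment over 27522 transcripts. The log2 fold change is S8 minus C4, and a call needed an adjusted p under 0.05 and at least 2-fold. All RPKM values were whole multiples of what 1 read is worth, from which reads were rebuilt with whole reads for 100% of values within 0.001 read. These gave the depths and the voom alternative, which called 3689 transcripts higher and 3184 lower. Depth limits low values, and counting error alone is covered by the floors of 3 reads. The fit was tested on simulated data. The p-values measure the spread between single animals of a stock or a clone.

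The comparison, gene lists and tests were chosen with earlier results of these data known. Named transcripts were the 10 largest calls per direction with at least 1 RPKM in the higher group and no overlap, the 10 largest annotated ones, the 2 largest calls per list and direction, the 5 most abundant read in only 1 group, and a fixed set of marker names. Further called list members were named after their values were seen. Alternatives were other pseudocounts, filters, scalings, designs and thresholds, and leaving out each library. Tables of the study gave names, list members and probe sequences only. Of the 34 fixed names, 1 was higher, 2 were lower and 31 were not called, and not all of them are reported here.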

Additional observations from a re-analysis of the deposited data

Results flagged for a closer look

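In 318 groups of 4 libraries, 1 library stood far from the other 3 in 16, where chance gives about 1 in 20 groups, and 3 of the 16 were C4 replicate 2. In S8 replicate 2, SMED30026148 had 49.1 RPKM (others 28 to 28.2), SMED30022734 had 264 RPKM (others 6.67 to 27.3), SMED30014469 had 1.93 RPKM (others 0.354 to 0.605) and SMED30020968 had 0.849 RPKM (others 1.83 to 1.89). In the same library, SOXP-1 (SMED30019097) had 12.0 RPKM (others 9.90 to 10.1) and a heat shock protein 83-like transcript (SMED30010931) had 1.58 RPKM (others 0.706 to 0.750).

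In S8 replicate 1, SMED30024583 had 1.01 RPKM (others 0.134 to 0.281), SMED30020726 had 3.02 RPKM (others 0.161 to 0.277) and SMED30001780 had 0.197 RPKM (others 0.0785 to 0.0922). In S8 replicate 3, the collagen XV-like SMED30006777 had 8.37 RPKM (others 6.56 to 6.67).

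In C4 replicate 2, histone H2B (SMED30021461) had 6.93 RPKM (others 3.01 to 3.48), and the serine protease inhibitors SMED30007141 and SMED30020210 had 916 RPKM (others 424 to 491) and 1047 RPKM (others 462 to 543). In C4 replicate 4, an innexin (SMED30002918) had 0.691 RPKM (others 0.263 to 0.316) and SMED30035604 had 0.0685 RPKM (others 0). In C4 replicate 3, the cathepsin L-like SMED30001027 had 21.5 RPKM (others 25.6 to 26.0).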

How the results depend on the processing

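The count of transcripts higher in S8 was 729 with a pseudocount of 1 RPKM, 1264 with a stricter filter, 2202 in a fit over all 10 groups, 87 at the study's thresholds and 1684 for calls averaging 1 RPKM or more in S8, the last chosen after seeing the data. The count lower in S8 was 1741 with a pseudocount of 1 RPKM and 252 at the study's thresholds. Leaving out 1 library gave 2872 to 4111 higher and 2796 to 3067 lower. Transcripts read only in S8 numbered 55 when up to 0.05 RPKM was allowed in C4, 36 from 0.5 RPKM upward and 11 to 31 with a library left out, and those read only in C4 numbered 94 and 79. The replicate number as a block gave 3560 higher and 3056 lower and changed no call among the 161 transcripts named by rule. The correlations of same-numbered libraries over all tested transcripts were -0.02 to 0.06, so the numbers were not taken as pairs. Single transcripts, such as several of the 10 largest higher ones, shared an order of replicates between the groups all the same. Of the 120 called transcripts named by rule, 112 were called with every library left out in turn, and none of the 120 changed direction. List members named after their values were seen are not among the 120. Some of them kept their call in fewer of the 8 fits that leave out a library. Twitchin was called in 7, the mmp2 transcript SMED30019680 in 6 and the collagen SMED30017388 in 4. The medians of 13 of 33 lists changed sign under at least 1 alternative, and calls higher in S8 were 54.1% of all calls but 29.5% with a pseudocount of 1 RPKM. The cause of the changes was not tested.

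Of 528 recomputed list medians, 86 moved by more than the spread between libraries. With total reads in place of TMM, all tested transcripts moved to a median of 0.28, and the list medians were 0.54 (neoblast-enriched), 0.08 (zeta), -0.35 (gamma), 0.24 (sigma), 0.19 (early embryo), 0.17 (epidermis), -0.31 (gut), 0.19 (nervous system), 0.44 (muscle), 0.50 (protonephridia), 0.36 (eye), 0.14 (temporary tissues), 0.32 (yolk), 0.75 (DNA replication), 0.55 (mitosis), 0.10 (channels), 0.16 (synaptic), -0.00 (cilia), 0.04 (innexins), 0.44 (contractile), 1.07 (extracellular matrix), -0.29 (metalloproteinases), -0.91 (cathepsins and lysosomal), -0.28 (TRAF-like), 0.57 (CRISP), 0.28 (patterning), 0.22 (homeobox), -0.16 (cytochrome P450), 0.55 (heat shock) and -0.81 (astacins and trypsins). With quantile normalization they were 0.06 (zeta), -0.29 (gamma), 0.21 (sigma), -0.34 (gut), 0.18 (nervous system), 0.43 (protonephridia), 0.23 (eye), -0.35 (temporary tissues), 0.29 (yolk), 0.49 (mitosis), -0.37 (neuropeptides), -0.03 (cilia), -0.02 (innexins), 0.48 (contractile), -0.25 (metalloproteinases), -0.93 (cathepsins and lysosomal), -0.35 (TRAF-like), 0.23 (patterning), -0.11 (cytochrome P450), 0.49 (heat shock) and -0.68 (astacins and trypsins). A stricter filter gave -0.25 (early embryo), -1.19 (temporary tissues), 1.03 (histones), -1.50 (cathepsins and lysosomal), -0.63 (TRAF-like), 0.15 (heat shock) and -0.42 (serine protease inhibitors), and no filter gave 0.09 (early embryo), 0.14 (temporary tissues), -0.06 (metalloproteinases) and -0.11 (cathepsins and lysosomal). A pseudocount of 1 RPKM gave -0.11 (metalloproteinases), -0.81 (cathepsins and lysosomal) and -0.45 (TRAF-like), and voom gave 0.41 (heat shock). With a library left out, medians ran 0.07 to 0.41 (CRISP), -0.64 to -0.50 (TRAF-like), -1.30 to -1.02 (cathepsins and lysosomal), 0.03 to 0.21 (contractile), -0.72 to -0.57 (gamma), 0.14 to 0.42 (heat shock), 0.54 to 1.04 (histones), -0.61 to -0.28 (metalloproteinases) and -0.50 to -0.33 (temporary tissues).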
